A study of Mus musculus with 8 samples.

Results

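The 4 libraries compared here are the wild-type (WT) libraries of a mouse spleen RNA-seq series of 8. GCB_WT1 and GCB_WT2 hold germinal center B cells sorted by flow cytometry, and PanB_WT1 and PanB_WT2 hold splenic B cells enriched on SA beads by way of a PanB biotin reagent and afterwards stimulated in vitro. All 4 came from WT mice of the C57BL/6 strain, and the libraries were chosen by their titles. The remaining 4 libraries are the same cell states from C57BL/6 mice with a B cell knockout of Jmjd1c (Jmjd1c B KO), a gene for a Jumonji-domain protein, and are used only for a comparison near the end. The labels do not name the sort markers, the immunization, the stimulus, its duration or the age of the mice. Whether each library of a state came from its own mouse is not given either, so the p-values cover no more than the spread among these samples, and that spread may be technical. Only the activated cells are labelled as stimulated in vitro, so cell state, culture and the isolation method cannot be told apart.

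A germinal center is a transient structure in a B cell follicle where B cells that met antigen divide, mutate their antibody genes and compete for help from follicular T cells. The transcription factor BCL6 sets up the state. Cells cycle in the dark zone, are tested for antigen capture in the light zone, and are held in the structure by receptors such as S1PR2. A B cell activated in culture receives a signal without this tissue context.

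Germinal center and activated B cells differed across most of the transcriptome. Of 14426 genes tested with edgeR's quasi-likelihood F test on the 4 libraries, 11852 passed at an adjusted p under 0.05, which is 82.2% of the tested genes. Of these, 5816 (40.3%) were higher in germinal center B cells and 6036 (41.8%) were lower. A difference of more than 2-fold was also required for the 6365 genes (44.1%) of the second rule, 2863 higher (19.8%) and 3502 lower (24.3%). The 2 libraries of 1 state did not overlap those of the other for 13026 genes (90.3%). The median log2 difference over all tested genes was -0.034, with quartiles of -0.96 and 0.77. Replicates of a state differed by more than counting noise (chi-square per degree of freedom 1.57 and 2.08) and were close: the biological coefficient of variation was 2.48% between the germinal center libraries and 3.86% between the activated libraries. Because so many genes passed, the share of a gene list that passed is read here against 40.3% higher and 41.8% lower, and the size of a difference carries more than the call. Levels are CPM after TMM scaling (a gene's counts scaled to a common library size), every difference is germinal center minus activated on the log2 scale, and the value after ± is its standard error with n = 2 libraries per state.

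**Figure D1:**
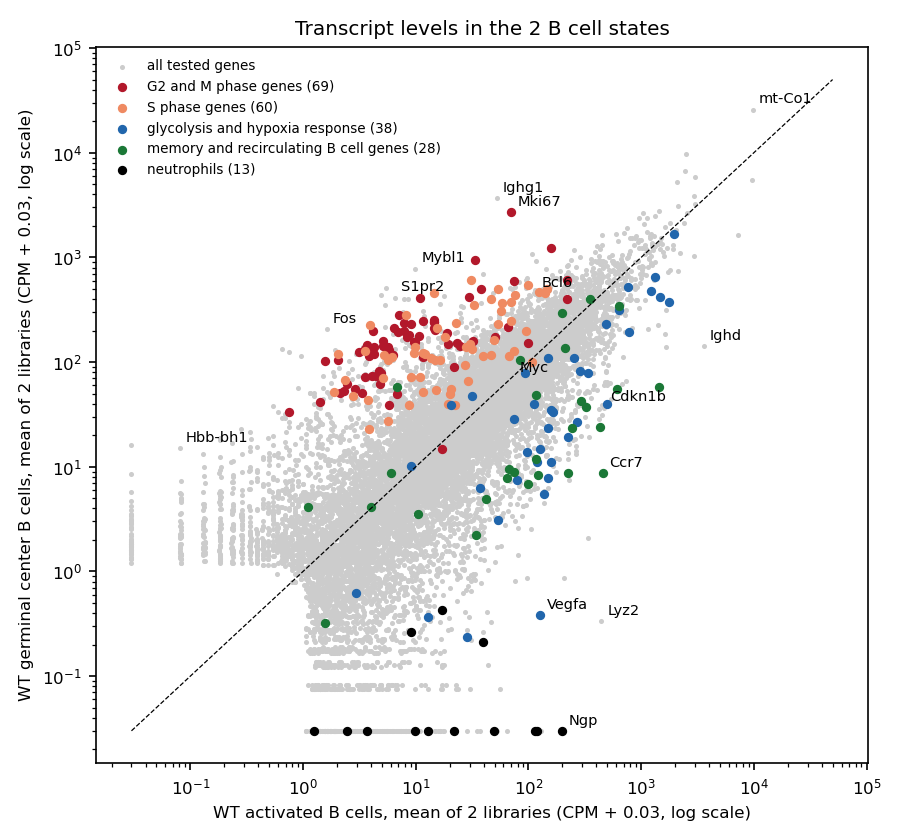
Each point is 1 of 14426 tested genes, with the mean CPM + 0.03 of the 2 activated libraries on the x axis and that of the 2 germinal center libraries on the y axis, both on log scales, and the dashed line marks equal levels. The 69 G2 and M phase genes lie mostly above the line, the 38 glycolysis and hypoxia genes mostly below it, and neutrophil markers along the bottom at or near 0 in germinal center B cells.

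Total counts on genes were 9219536 to 11414559 per library, so 1 CPM rests on 9.22 to 11.4 counts. The share of counts on mitochondrially encoded genes was 5.51% and 5.27% in the germinal center libraries and 2.42% and 2.25% in the activated ones. Reads at several genomic places were 6.88% and 6.99% against 4.54% and 4.37% of all entries.

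The labels were checked against defining markers. The 10 B lineage markers summed to 8312 and 8412 CPM in the germinal center libraries and 8695 and 8634 CPM in the activated libraries. Singly they were not equal: 3 of the 10 were higher in germinal center B cells and 5 lower. Of those lower, 3 passed 2-fold: Ebf1 (-1.46), Fcrla (-1.45) and Blk (-1.27). None of those higher did, with Ms4a1 at 0.94. Cd79a, which encodes a signaling chain of the B cell receptor, stood at 572 and 583 CPM against 569 and 576 and did not pass (log2 difference 0.012 ± 0.047, adjusted p = 0.816), though it passed as lower with upper quartile scaling (-0.13, adjusted p = 0.00627). The cultured cells held transcripts of activation genes, such as Nr4a1 at 131 and 135 CPM and Egr3 at 136 and 145 CPM, both induced by antigen receptor signals, and Cd83, a surface activation marker, at 173 and 171 CPM. Other genes went the other way in the same libraries. The immediate early genes Fos (1.89 and 1.31 CPM) and Fosb (1.47 and 2.01 CPM) were low. Cdkn1b, an inhibitor that keeps cells quiescent, was at 468 and 462 CPM and Klf2 at 294 and 292 CPM. There is no unstimulated group, so how far the cultured cells were activated was not measured. Mki67, a marker of cycling cells, was at 71.3 and 69.5 CPM in them.

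Markers of other blood cells were higher in the activated libraries. All 13 neutrophil markers passed as lower in germinal center B cells, and their sum was 0.529 and 1.1 CPM in the germinal center libraries and 637 and 562 CPM in the activated ones. For 10 of the 13, among them Ngp, S100a8, S100a9, Ltf, Retnlg and Mpo, no read was counted in the germinal center libraries. Ngp, a granule protein of neutrophils, had 213 and 188 CPM in the activated libraries, which is at least 1356-fold higher than a floor of 3 counts over the germinal center group allows. Of 14 tested monocyte and macrophage markers 12 were lower and 1 higher, with a median of -3.31 and a range of -10.5 to 0.46. Their sums were 708 and 729.5 against 1748 and 1671 CPM, a smaller difference than that of most members. Lyz2, the lysozyme of myeloid cells, was 0.423 and 0.183 against 463 and 419.5 CPM, and Adgre1, which encodes the macrophage antigen F4/80, 1.59 and 1.19 against 80.8 and 81.8 CPM. Of 9 tested erythroid markers 8 were lower, with a median of -5.78 where the gene without germinal center reads is put at the floor. Their sums were 135 and 145 against 812 and 805 CPM, also a smaller difference than that of most members. Tested T cell markers (10 of 19 listed) were lower for 9 and summed to 103 and 106 against 209.5 and 200.4 CPM. Only 2 of 10 listed NK cell markers were tested, both lower (sums 0.529 and 0.55 against 6.39 and 6.74 CPM). Only 3 of 15 listed stromal and follicular dendritic cell markers were tested, all lower (sums 61.6 and 60.9 against 261 and 275 CPM). Untested ones had few counts and went both ways. Over both libraries Cxcl13 had 6 against 0 counts, Madcam1 6 against 0 and Clu 7 against 2. Col1a1 had 0 against 17, Col1a2 0 against 19 and Pdgfrb 1 against 9. Most of the T cell sum came from Cd2 (72.05 and 72.65 against 123.3 and 116.6 CPM) and Cd247 (23.7 and 22.4 against 60.1 and 57.5 CPM). Cd247 shares 56.4% of its exon length with exons on the opposite strand, which makes its value uncertain. Cd3e, a chain of the T cell receptor complex, was at 0 in both germinal center libraries and at 2.41 and 1.91 CPM in the activated ones. Of 8 dendritic cell markers 7 were lower (80.3 and 82.5 against 99.8 and 109 CPM), and the exception was Flt3, a cytokine receptor of early progenitors, at 56.1 and 60.5 against 2.83 and 3.72 CPM. The only tested platelet marker, Itga2b, was lower (1.06 and 1.38 against 4.82 and 3.32 CPM). The part of such cells in the differences below was not tested. In bulk samples fewer cells of a type and less RNA per cell cannot be told apart.

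The germinal center program was present in the sorted cells. Of the 34 tested genes of the program, 22 were higher in germinal center B cells and 8 lower, with a median log2 difference of 0.78 against -0.034 over all genes. Bcl6 (ENSMUSG00000022508.5, chr16:23965052-23988852 in GRCm38), which encodes the repressor that defines the state, was 445 and 456 CPM in germinal center libraries and 114 and 117 in activated ones (log2 difference 1.97 ± 0.051, adjusted p = 1.09e-89). For it and the next 4 genes, the lowest germinal center library was above the highest activated library. The states did not overlap for 90.3% of all tested genes either. Mybl1, a transcription factor of the MYB family, was 794 and 764 against 10.1 and 9.75 CPM (6.30 ± 0.075). Mef2b, a transcription factor that is often mutated in germinal center lymphomas, was 437 and 431 against 5.13 and 4.63 CPM (6.47 ± 0.085). Gcsam, which restrains the movement of germinal center B cells, was 355 and 349 against 4.82 and 5.73 CPM (6.05 ± 0.085). Nuggc, a nuclear GTPase, was 501 and 516 against 5.97 and 4.93 CPM (6.54 ± 0.083). Apart from Bcl6, which was well expressed in both states, these transcripts were at no more than about 10 CPM in the activated cells. Fas, the death receptor, was 129 and 136 against 6.91 and 6.03 CPM (4.36 ± 0.10), and Cd38, a surface enzyme that mouse germinal center B cells lose, 23.4 and 23.6 against 244 and 239 CPM (-3.36 ± 0.067). Both are commonly used to sort these cells, and since the sort markers are not named, selection and expression cannot be told apart for them. Il21r, the receptor for the T cell cytokine IL-21, was higher by less (335 and 342 against 221 and 215 CPM, 0.64 ± 0.049), as was Pou2af1, a coactivator needed for germinal centers (1294 and 1309 against 878 and 858 CPM, 0.58 ± 0.047). Ebf1, a B lineage factor, was lower (105 and 115 against 315 and 293 CPM, -1.46 ± 0.052). Bach2 differed little (408 and 391 against 355 and 350.4 CPM, 0.18 ± 0.048), and its call was lost with upper quartile scaling (0.034, adjusted p = 0.507).

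**Figure D2:**
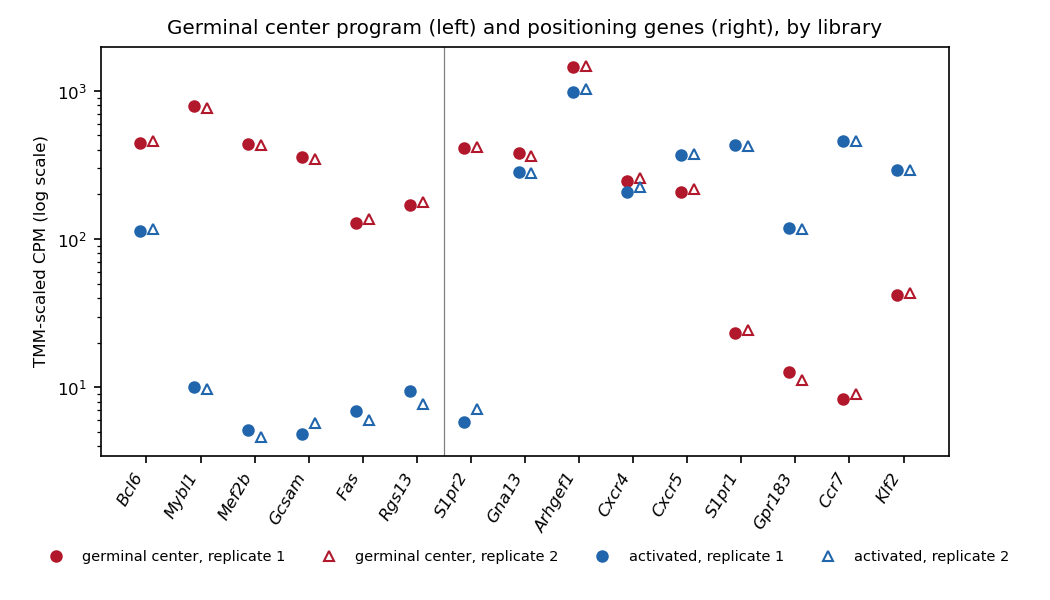
TMM-scaled CPM (log scale) of 15 genes in each of the 4 WT libraries, with germinal center libraries in red and activated libraries in blue, circles for replicate 1 and triangles for replicate 2. The 6 program genes on the left are higher in the germinal center libraries, S1pr2 likewise, and S1pr1, Gpr183, Ccr7 and Klf2 on the right are higher in the activated libraries.

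The list of genes that place B cells in or outside the germinal center was mixed. Of 31 confinement and positioning genes, 11 were higher in germinal center B cells and 19 lower (median -0.76). S1pr2 (ENSMUSG00000043895.6, chr9:20962361-20976781), the receptor that keeps cells clustered in the follicle center, was 410.2 and 415 CPM in germinal center libraries and 5.86 and 7.14 in activated ones (5.98 ± 0.081, adjusted p = 2.22e-139). Its signaling partners differed much less: Gna13, the G protein alpha subunit downstream of it, was 382 and 361 against 282 and 278 CPM (0.41 ± 0.048). Arhgef1, the exchange factor that follows, was 1452 and 1478 against 978 and 1030 CPM (0.55 ± 0.047). Rgs13, which dampens chemokine signals, was 169.6 and 179 against 9.53 and 7.74 CPM (4.34 ± 0.086). The receptors for exit and for other zones were lower in the germinal center libraries. S1pr1, which leads lymphocytes into the circulation, was 23.2 and 24.4 against 432 and 425 CPM (-4.17 ± 0.064). Ccr7, which leads cells to the T cell zone, was 8.36 and 9.08 against 457 and 462 CPM (-5.71 ± 0.076, adjusted p = 9.64e-141). Gpr183 (EBI2), which leads cells to the outer follicle, was 12.7 and 11.2 against 119 and 116 CPM (-3.31 ± 0.087). Klf2, a transcription factor that drives S1pr1, was 42.2 and 43.5 against 294 and 292 CPM (-2.77 ± 0.059). None of these 4 genes overlapped between the states, which was also so for 90.3% of all tested genes. The chemokine receptors that divide the germinal center into zones differed by less than 2-fold: Cxcr5, the follicle receptor, was 209 and 218 against 367 and 376 CPM (-0.80 ± 0.049), and Cxcr4, the dark zone receptor, 246 and 257 against 206 and 224 CPM (0.23 ± 0.049). The Cxcr4 call was lost with upper quartile scaling (0.081, adjusted p = 0.118). Itga4, the alpha chain of the VLA-4 integrin, was lower (81.6 and 81 against 474 and 498 CPM, -2.58 ± 0.054), while Cd44, a hyaluronan receptor, did not pass (89.4 and 86.04 against 81.6 and 87.5 CPM, 0.052 ± 0.062, adjusted p = 0.438).

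Genes of memory and recirculating B cells made up the list with the lowest median of the 36 lists that are not cell type markers. Of its 28 tested genes, 6 were higher in germinal center B cells and 21 lower, and the median was -2.92. Plac8, a small cysteine-rich protein, was 8.25 and 8.99 against 244 and 203 CPM (-4.69 ± 0.085). Cd55, a complement regulator, was 51.95 and 57.8 against 604 and 614 CPM (-3.47 ± 0.057). Satb1, a chromatin organizer, was 37.03 and 37.1 against 325 and 328 CPM (-3.14 ± 0.06), and Il6st, the shared signaling chain of IL-6 family receptors, 7.51 and 6.15 against 102 and 96.1 CPM (-3.86 ± 0.10). Bcl2, the survival factor that germinal center B cells are known to lack, was 9.31 and 7.16 against 124 and 122 CPM (-3.91 ± 0.094, adjusted p = 5.96e-96). Cr2, the complement receptor, was an exception and was higher in the germinal center libraries (297 and 295 against 199.7 and 195 CPM, 0.59 ± 0.049). Adhesion and surface glycan genes leaned the same way, with 8 of 34 higher and 22 lower (median -0.99). Cmah, the enzyme that makes the sialic acid lost on germinal center B cells and the basis of their GL7 stain, was 60.4 and 64.4 against 518 and 544 CPM (-3.09 ± 0.056). Selplg, an adhesion ligand, was 13.2 and 9.08 against 118 and 121 CPM (-3.43 ± 0.09). St6gal1, which adds sialic acid to glycans, differed little and did not pass (375 and 372 against 399 and 399 CPM, -0.10 ± 0.047, adjusted p = 0.0554), but passed as lower under 5 alternatives, with a value of -0.24 with upper quartile scaling.

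Constant regions of IgG1, IgG3 and IgG2b were higher in the sorted cells, and those of IgM, IgD and IgA lower. Ighg1, the constant region of IgG1 (chr12:113325240-113330523), was 3662 and 3728 CPM in germinal center libraries and 55.6 and 48.6 in activated ones (6.15 ± 0.065, adjusted p = 1.24e-158). Ighg3 was 339.9 and 331 against 27.8 and 25.1 CPM (3.67 ± 0.064) and Ighg2b 674 and 680.4 against 168 and 154 CPM (2.07 ± 0.051). Ighm, of IgM, was 1634 and 1652 against 7199 and 7134 CPM (-2.12 ± 0.05), and Ighd, of IgD, 144 and 142 against 3558 and 3614 CPM (-4.65 ± 0.057, adjusted p = 1.52e-146). Igha, of IgA, was also lower (18.2 and 17.6 against 252 and 249 CPM, -3.81 ± 0.07). Ighg2c was close in both states (71.5 and 65.2 against 61.1 and 57.9 CPM, 0.20 ± 0.07) and lost its call with upper quartile scaling (0.051), with DESeq2 (0.19) and without germinal center replicate 1 (0.15) or activated replicate 2 (0.15). In all, 5 of 12 constant genes were higher and 6 lower. Constant genes share near-identical sequence, so the split of reads among the IgG genes is uncertain.

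Most of the antibody diversification machinery was higher as well, 30 of 40 genes against 5 lower (median 0.85). Ung, the glycosylase that removes uracil from DNA, was 50.2 and 54.3 against 11.3 and 11.9 CPM (2.17 ± 0.11). Msh6, a mismatch repair protein, was 275 and 287 against 87.95 and 86.4 CPM (1.69 ± 0.053). Polh, the error-prone polymerase that copies past the lesion, was 198 and 189 against 21.8 and 24.2 CPM (3.07 ± 0.07), and Hmces, which shields abasic sites in single-stranded DNA, 687 and 687 against 39.7 and 38.7 CPM (4.13 ± 0.06). Many of these genes also serve DNA repair in any dividing cell.

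Nearly all cell cycle genes were higher in germinal center B cells. Of 60 S phase genes, 59 were higher in germinal center B cells and 0 lower (median 2.62, range -0.11 to 5.87). Of 69 G2 and M phase genes, 68 were higher and 0 lower (median 4.26, range -0.21 to 6.03). Mki67 (chr7:135689784-135716361) was 2784 and 2664 CPM in germinal center libraries and 71.3 and 69.5 in activated ones (5.27 ± 0.061, adjusted p = 1.71e-151). Top2a, the topoisomerase that untangles chromosomes, was 948 and 930.3 against 34.5 and 32.1 CPM (4.82 ± 0.063). Cdk1, the kinase that starts mitosis, was 123 and 125 against 3.25 and 2.92 CPM (5.33 ± 0.11), and its partner Ccnb1 138 and 139 against 5.34 and 5.43 CPM (4.68 ± 0.10). Cenpe, a kinetochore motor, was 419.7 and 405 against 13.1 and 8.65 CPM (5.25 ± 0.076), and Cdc20, which triggers anaphase, 285 and 283 against 7.22 and 6.84 CPM (5.33 ± 0.083). For each of them, both germinal center libraries were far above both activated libraries. A lack of overlap alone was seen for 90.3% of all tested genes. Among S phase genes, the helicase subunits Mcm5 and Mcm6 were 608 and 614 against 28.8 and 33.5 CPM (4.29 ± 0.063) and 548 and 546 against 99.3 and 101 CPM (2.45 ± 0.053). Pcna, the sliding clamp, was 441 and 430.2 against 77.3 and 74.5 CPM (2.52 ± 0.054), Rrm2, a subunit of ribonucleotide reductase, 276 and 282 against 8.9 and 7.44 CPM (5.09 ± 0.081), and Clspn, a checkpoint adaptor, 228 and 220.3 against 4.4 and 3.32 CPM (5.86 ± 0.10). The dark zone list, 22 of 24 higher with a median of 4.40, shares Mki67, Top2a, Cdk1, Plk1 and other members with the G2 and M list and is not a separate observation. Its 2 members that were lower were Foxo1, which maintains the dark zone (220.5 and 208 against 366 and 359.9 CPM, -0.76 ± 0.049), and Foxp1 (143 and 141 against 505 and 495 CPM, -1.82 ± 0.05).

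Promoters of these genes carry known cell cycle elements, and 4 are shown because they hold such an element and belong to genes described above. Sequences are the 250 bases before the RefSeq transcription start (GRCm38.p6), read 5′ to 3′ on the gene's strand, with matches on either strand in capitals. The CHR element TTTGAA, the binding element of the DREAM and MuvB complexes, marks late cell cycle genes, and the E2F element (TTTGGCGC, TTTCCCGC or TTTCGCGC) marks replication genes.
Cdk1, CHR, chr10:69352913-69353162, minus strand: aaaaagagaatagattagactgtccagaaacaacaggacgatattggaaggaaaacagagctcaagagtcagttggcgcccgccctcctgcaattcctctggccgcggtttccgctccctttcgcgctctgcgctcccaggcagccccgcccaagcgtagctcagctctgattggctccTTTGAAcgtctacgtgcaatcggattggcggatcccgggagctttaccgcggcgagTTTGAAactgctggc
Mki67, CHR, chr7:135716380-135716629, minus strand: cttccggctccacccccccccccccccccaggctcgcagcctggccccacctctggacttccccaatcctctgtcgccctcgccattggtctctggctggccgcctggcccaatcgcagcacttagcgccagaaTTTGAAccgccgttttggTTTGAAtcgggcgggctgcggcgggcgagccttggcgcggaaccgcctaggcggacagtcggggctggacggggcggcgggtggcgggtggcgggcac
Mcm6, E2F, chr1:128359706-128359955, minus strand: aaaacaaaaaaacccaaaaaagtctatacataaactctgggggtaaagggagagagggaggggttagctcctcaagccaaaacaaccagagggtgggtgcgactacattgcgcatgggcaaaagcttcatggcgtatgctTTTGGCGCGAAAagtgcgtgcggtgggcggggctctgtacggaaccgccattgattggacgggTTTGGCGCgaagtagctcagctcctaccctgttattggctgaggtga
Mcm5, E2F, chr8:75109259-75109508, plus strand: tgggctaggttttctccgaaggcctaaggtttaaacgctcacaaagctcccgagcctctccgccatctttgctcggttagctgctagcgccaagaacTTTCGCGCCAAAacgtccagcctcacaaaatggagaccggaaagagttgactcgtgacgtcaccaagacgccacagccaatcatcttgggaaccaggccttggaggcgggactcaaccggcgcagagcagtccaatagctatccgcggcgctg
Each capital run is 1 match or a merged run of overlapping matches. Over 300-base windows (from 250 bases before the start to 50 after it), TTTGAA occurred in 41 of 62 windows of G2 and M genes (66.1%), in 11.3% of windows of S phase genes and in 17.9% of all windows. The E2F element occurred in 20 of 53 windows of S phase genes (37.7%), in 8.06% of those of G2 and M genes and in 1.84% of all windows. CCAAT, the NF-Y box, occurred in 75.8% of windows of G2 and M genes and in 37.4% of all. These shares describe letters in a window and are no measure of binding.

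Genes of the G1 phase were mixed, with 18 of 31 higher and 13 lower (median 0.88). The D-type cyclins split: Ccnd3, the cyclin that germinal center B cells depend on, was 433 and 431 against 104 and 103 CPM (2.07 ± 0.052), and Ccnd2, induced by antigen receptor signals, 23.9 and 23.02 against 50.5 and 49.5 CPM (-1.09 ± 0.091). Cdkn1b, the inhibitor p27 that keeps cells quiescent, was 35.02 and 38.3 against 468 and 462 CPM (-3.66 ± 0.06, adjusted p = 1.07e-124), while Cdkn2c, the inhibitor p18, was 72.5 and 67.1 against 10.2 and 9.86 CPM (2.80 ± 0.10). The transcription factors E2f1 (108 and 117 against 6.18 and 6.03 CPM, 4.21 ± 0.10) and E2f8 (126 and 113 against 2.83 and 3.02 CPM, 5.35 ± 0.12) were higher. Replication-dependent histone genes, whose transcripts mostly lack a poly(A) tail, were low in both states: 31 of 52 were tested, 27 were higher and 1 lower, and their sums were 114 and 119 CPM in the germinal center libraries and 35.2 and 35.3 CPM in the activated ones.

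Light zone and activation genes had no common direction, 13 of 30 higher and 15 lower (median -0.13). Cd83 (272 and 272 against 173 and 171 CPM, 0.66 ± 0.049) and Cd86, a costimulatory ligand (144 and 159.7 against 43.9 and 38.5 CPM, 1.89 ± 0.066), were higher in germinal center B cells. Nr4a1 (19.04 and 23.8 against 131 and 135 CPM, -2.62 ± 0.076) and Egr3 (21.7 and 17.3 against 136 and 145 CPM, -2.85 ± 0.077) were lower. Myc, which marks germinal center cells selected to divide again, was 67.2 and 72.7 CPM in the germinal center libraries and 72.6 and 73.3 in the activated ones and did not pass (-0.059 ± 0.067, adjusted p = 0.413). With upper quartile scaling Myc passed as lower (-0.20, adjusted p = 0.00335). Ligands and receptors of T cell contact were also divided, 12 of 28 higher and 14 lower (median -0.13). Efnb1, an ephrin that regulates contact with follicular T cells, was 126 and 136 against 2.41 and 1.41 CPM (6.10 ± 0.12, adjusted p = 4.16e-108), Plxnb2, a semaphorin receptor of that contact, 459.9 and 449 against 45.02 and 52.4 CPM (3.22 ± 0.058), and Slamf1, an adhesion receptor, 80.9 and 81.4 against 11.5 and 13.8 CPM (2.68 ± 0.094). Cd40, which receives T cell help, was 74.1 and 80.9 against 36.9 and 36.3 CPM (1.08 ± 0.076). Icosl, the ligand for ICOS, was lower (135 and 139.9 against 274 and 282 CPM, -1.01 ± 0.05). Cd274, the inhibitory ligand PD-L1, was lower too (9.2 and 11.2 against 164 and 164 CPM, -4.00 ± 0.084), with 14.1% of its exon length shared with exons on the opposite strand, which makes its value uncertain because the strand setting of the counting is not given.

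Immediate early genes did not move together. Of 33, 11 were higher and 20 lower (median -0.64). The AP-1 genes Fos and Fosb were 206 and 210.2 against 1.89 and 1.31 CPM (7.02 ± 0.11, adjusted p = 2.95e-125) and 62.2 and 64.5 against 1.47 and 2.01 CPM (5.17 ± 0.15), and their partners Jun (34.6 and 33.2 against 21.6 and 27.2 CPM, 0.47 ± 0.10) and Junb (181 and 178 against 104 and 122 CPM, 0.67 ± 0.054) were higher by less than 2-fold. Fos was thus low in the cultured cells, while Nr4a1 and Egr3 were higher there, and Egr1 was close in both (66.7 and 60.1 against 71.8 and 73.3 CPM, -0.20 ± 0.068), a call that was lost with DESeq2 (-0.20, adjusted p = 0.091) and without germinal center replicate 2 (-0.10).

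Genes of the B cell receptor pathway were divided. Of 46 genes, 15 were higher and 24 lower (median -0.23, range -5.12 to 0.99). Past 2-fold, 0 of the 46 were higher and 11 lower, where 19.8% of all tested genes were higher and 24.3% lower. Syk, the kinase that starts the cascade, was 1093 and 1057 against 1083 and 1059 CPM and did not pass (0.005 ± 0.047, adjusted p = 0.924), though it passed as lower with upper quartile scaling (-0.14, adjusted p = 0.00413). Blnk, the adaptor, was 447 and 459.9 against 344 and 337 CPM (0.41 ± 0.048), and Plcg2, the phospholipase, 599.9 and 586 against 387 and 389 CPM (0.61 ± 0.047). Ptpn6, the phosphatase SHP-1 that limits the signal, was 919.7 and 926 against 460.4 and 466 CPM (0.99 ± 0.047), and Cd22, the inhibitory receptor that recruits it, 1603 and 1615 against 1165 and 1225 CPM (0.43 ± 0.047). Prkcb, the kinase that links the receptor to NF-kappaB, was lower (146 and 142 against 376 and 375 CPM, -1.38 ± 0.05), as were Blk (284 and 301 against 688 and 719.7 CPM, -1.27 ± 0.048) and Btk (194 and 192 against 316 and 295 CPM, -0.66 ± 0.049). NF-kappaB subunits and targets were lower for 24 of 39 genes and higher for 13 (median -0.41). Among the subunits, Rel was 197 and 209 against 415 and 410.3 CPM (-1.02 ± 0.049), Nfkb1 188 and 182 against 341 and 344 CPM (-0.89 ± 0.049) and Relb 46.3 and 51.2 against 87.8 and 83.9 CPM (-0.81 ± 0.07). Exceptions among the targets were Lta, the cytokine lymphotoxin alpha (96.3 and 96.7 against 6.28 and 4.73 CPM, 4.13 ± 0.11), and Traf1, a signaling adaptor (178 and 189 against 49.5 and 53.8 CPM, 1.83 ± 0.061), both higher in germinal center B cells.

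Antigen presentation genes were divided. Of 22 class II genes, 12 were higher and 8 lower (median 0.30). Ciita, the master activator of class II genes, was 553 and 535 against 228 and 248 CPM (1.19 ± 0.049), Cd74, the invariant chain, 5718 and 5914 against 3016 and 3051 CPM (0.94 ± 0.049) and H2-Ab1, a class II beta chain, 2353 and 2359 against 1137 and 1135 CPM (1.05 ± 0.048). H2-Aa, the alpha chain that pairs with it, was lower (1324 and 1327 against 2045 and 1798 CPM, -0.54 ± 0.048), and so was Ctss, the protease that cuts the invariant chain (126 and 137 against 444 and 407 CPM, -1.69 ± 0.051). Of 22 class I genes, 10 were higher and 10 lower. B2m, the light chain of every class I molecule, was 307 and 324 against 1777 and 1565 CPM (-2.41 ± 0.051, adjusted p = 7.4e-105). The heavy chains H2-K1 (855 and 851 against 1237 and 1238 CPM, -0.54 ± 0.047) and H2-D1 (895 and 907 against 1314 and 1354 CPM, -0.57 ± 0.047) were lower by less, and the heavy chain H2-Q7 (62.7 and 58.8 against 454 and 485 CPM, -2.95 ± 0.056) by more. Psmb9, a subunit of the immunoproteasome, was higher (178 and 181 against 90.99 and 88.8 CPM, 0.998 ± 0.055). Reads of class I heavy chain genes may be split among near-identical copies.

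Transcription factors of the B lineage were lower more often than higher, 26 against 12 of 43 (median -0.76). Irf4, which drives exit to plasma cells at high levels, was 49.5 and 47.4 against 228 and 222 CPM (-2.22 ± 0.059), and Irf8, its germinal center relative, 709 and 696 against 427 and 447 CPM (0.69 ± 0.047). Tcf3 (E2A), which supports germinal center proliferation, was 542 and 539.8 against 207 and 218 CPM (1.35 ± 0.049), and Pax5, the B cell identity factor, 882 and 829 against 1223 and 1232 CPM (-0.52 ± 0.047). Klf3 was 10.6 and 13.2 against 177 and 194 CPM (-3.95 ± 0.08). Plasma cell genes were lower for 14 of 28 and higher for 10 (median -0.39). Prdm1, the plasma cell regulator BLIMP1, was low in both states and lower in germinal center B cells (5.5 and 5.6 against 15.4 and 14.6 CPM, -1.43 ± 0.17), as was Sdc1, the plasma cell surface marker CD138 (2.12 and 3.12 against 41.99 and 38.8 CPM, -3.92 ± 0.16). Xbp1 (139 and 145 against 88.6 and 90 CPM, 0.67 ± 0.057) and Jchain, the joining chain of IgM and IgA (495 and 508 against 143 and 129 CPM, 1.89 ± 0.051), were higher, and so was Eaf2, an elongation factor partner known from germinal center B cells (182 and 186 against 6.7 and 5.83 CPM, 4.88 ± 0.091). Of 48 protein folding and secretion genes, 29 were higher and 13 lower (median 0.33). Hspa5, the main chaperone of the endoplasmic reticulum, was 535 and 532 against 235 and 212 CPM (1.26 ± 0.049) and Syvn1, a ubiquitin ligase of misfolded proteins, 713 and 746 against 217 and 233 CPM (1.70 ± 0.05), while Ero1l, the oxidase that is also induced by low oxygen, was lower (19.1 and 19.5 against 219.5 and 229 CPM, -3.53 ± 0.07).

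Glycolysis and hypoxia genes were lower in germinal center B cells for 35 of 38 tested members and higher for 2 (median -2.20, range -8.48 to 0.93). Vegfa (chr17:46016993-46032369), the vessel growth factor induced by low oxygen, was 0.423 and 0.275 CPM in the germinal center libraries and 129 and 126 in the activated ones (-8.48 ± 0.17, adjusted p = 7.49e-112). Bnip3l, a mitophagy receptor, was 39.2 and 40.2 against 520.4 and 485 CPM (-3.66 ± 0.06). Pdk1, the kinase that keeps pyruvate out of mitochondria, was 25.7 and 27.2 against 274 and 267 CPM (-3.35 ± 0.065). Bhlhe40, a repressor induced by low oxygen, was 10.8 and 11.1 against 118 and 121 CPM (-3.44 ± 0.088). Slc2a1, the glucose transporter GLUT1, was 36.7 and 33.5 against 156 and 160.4 CPM (-2.18 ± 0.066), and Hk2, the first enzyme of glycolysis, 27.5 and 29.1 against 76.8 and 70.9 CPM (-1.38 ± 0.081). The abundant enzymes differed less: Pkm, pyruvate kinase, was 656 and 647 against 1358 and 1313 CPM (-1.04 ± 0.048) and Ldha, lactate dehydrogenase, 516 and 528 against 761 and 776 CPM (-0.56 ± 0.047). Hif1a, the oxygen-regulated factor itself, was 117 and 99.99 against 147 and 149.5 CPM (-0.46 ± 0.056). Monocyte and macrophage markers were higher in the same activated libraries (1748 and 1671 CPM in sum against 708 and 729.5, median log2 difference -3.31). They moved with this list, as did neutrophil markers, at 637 and 562 CPM. Their part in the result was not tested. ACGTG, the core of the HIF binding element, was searched after the expression values were seen and occurred in 27 of 50 windows of this list (54%) and in 19.6% of all windows. The share was 43.4% for Myc and ribosome biogenesis genes and 32.1% for S phase genes, lists that were mostly higher in germinal center B cells. For interferon response genes, mostly lower, it was 8.33%. ACGTG overlaps the E-box CACGTG, which occurred in 12% of windows of the glycolysis and hypoxia list and 7.15% of all windows. The Ldha promoter is shown because it holds several such matches (RefSeq, GRCm38.p6, matches in capitals).
Ldha, ACGTG, chr7:46845554-46845803, plus strand: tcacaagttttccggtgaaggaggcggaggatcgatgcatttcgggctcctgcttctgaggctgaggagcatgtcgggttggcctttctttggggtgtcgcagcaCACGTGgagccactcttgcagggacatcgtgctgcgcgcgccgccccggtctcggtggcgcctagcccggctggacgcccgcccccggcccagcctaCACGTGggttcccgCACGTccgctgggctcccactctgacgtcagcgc

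**Figure D3:**
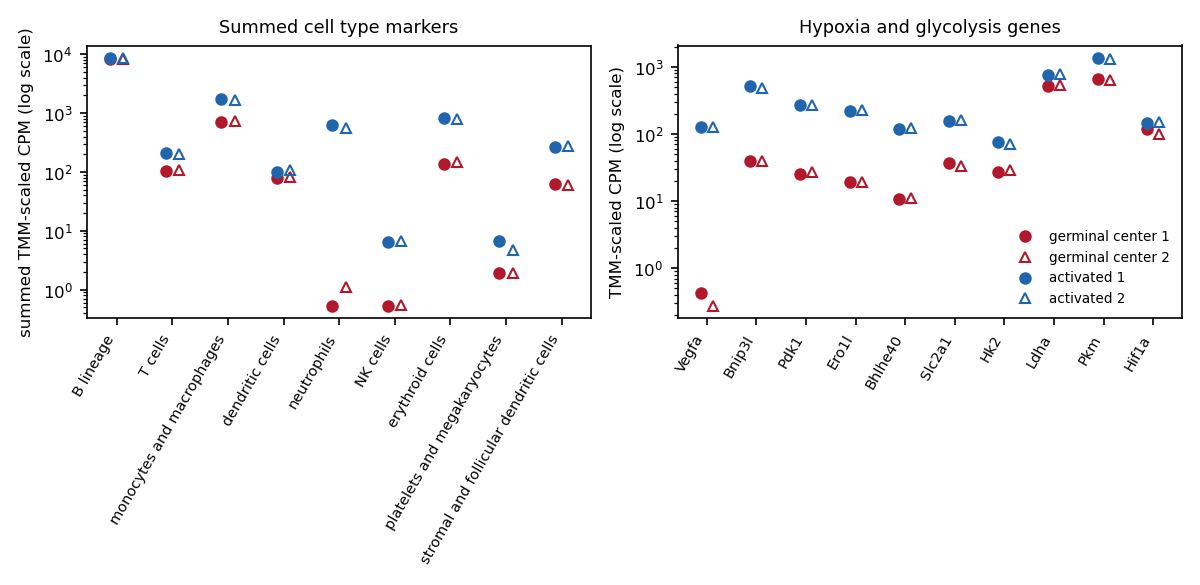
Left, summed TMM-scaled CPM (log scale) of marker lists for B cells and 8 other cell types in each of the 4 WT libraries. Right, CPM (log scale) of 10 hypoxia and glycolysis genes in the same libraries; germinal center libraries (red) lie below activated libraries (blue) for each gene, by far more for Vegfa than for Ldha or Hif1a.

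Respiration went the other way. Of 71 nuclear-encoded respiratory chain genes, 64 were higher in germinal center B cells and 4 lower (median 1.13). Atp5b, the catalytic subunit of ATP synthase, was 1020 and 1044 against 429.8 and 412 CPM (1.29 ± 0.048), Cox5b, of complex IV, 148 and 158 against 33.4 and 33.99 CPM (2.18 ± 0.067) and Uqcrc1, of complex III, 192 and 195 against 88.4 and 92.1 CPM (1.10 ± 0.055). Sdha, of complex II, was higher by less (226 and 229 against 193 and 191 CPM, 0.25 ± 0.049). All 13 genes of the mitochondrially encoded list passed as higher (median 1.97), among them mt-Co1 (26400 and 25120 against 9987 and 9581 CPM, 1.40 ± 0.052), mt-Cytb (9879 and 9652 against 2546 and 2453 CPM, 1.97 ± 0.051) and mt-Nd1 (5265 and 5180 against 2230 and 1926 CPM, 1.33 ± 0.05). The mitochondrial tRNA gene mt-Ts1, which is outside this list, was lower (44.75 and 38.99 against 174 and 171.3 CPM, -2.05 ± 0.063). mt-Atp6 was at only 21.8 and 25.7 against 2.51 and 2.21 CPM, and its value is uncertain because parts of the mitochondrial genome have near-identical nuclear copies. Fatty acid oxidation genes had no common direction (9 of 32 higher, 16 lower, median -0.20). Hadha, of the trifunctional protein, was 253 and 252 against 162 and 158 CPM (0.65 ± 0.05), Cpt1a, which admits fatty acids to mitochondria, 124 and 117 against 92.04 and 97.3 CPM (0.34 ± 0.058), and Acox3, a peroxisomal oxidase, 118 and 122 against 233 and 234 CPM (-0.96 ± 0.052).

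Biosynthetic genes were mostly higher in germinal center B cells. Of 40 genes of serine, single-carbon and nucleotide synthesis, 34 were higher and 4 lower (median 1.36). Psat1 and Phgdh, enzymes of serine synthesis, were 154 and 152 against 20.8 and 22.1 CPM (2.83 ± 0.073) and 176 and 175 against 89 and 80.7 CPM (1.05 ± 0.056). Shmt2, the mitochondrial enzyme that takes a carbon unit from serine, was 279 and 276 against 76.4 and 74.8 CPM (1.88 ± 0.054), and Tyms, thymidylate synthase, 50.6 and 53.9 against 1.78 and 1.91 CPM (4.82 ± 0.16). Tyms, Rrm1 and Rrm2 are also members of the S phase list. Of 55 Myc and ribosome biogenesis genes, 41 were higher and 6 lower (median 0.80). Nop56, a nucleolar protein, was 294 and 310 against 97.3 and 86.9 CPM (1.72 ± 0.053), Bysl, of the small ribosomal subunit, 153 and 156 against 28.2 and 27.96 CPM (2.46 ± 0.069), and Ncl, nucleolin, 1046 and 1052 against 702 and 638 CPM (0.65 ± 0.048). Mxi1, a repressor that opposes Myc, was lower (4.55 and 5.14 against 101 and 104 CPM, -4.39 ± 0.11). Of 41 cholesterol and fatty acid synthesis genes, 28 were higher and 8 lower (median 0.42), with Fasn, fatty acid synthase, at 279.7 and 269.7 against 93.8 and 99.7 CPM (1.505 ± 0.053). Scd1, a fatty acid desaturase, was lower (327 and 300.2 against 734 and 744 CPM, -1.24 ± 0.048) and its relative Scd2 higher (142 and 135 against 55.5 and 62.05 CPM, 1.23 ± 0.062). The mTORC1 list was even, 15 of 35 higher and 15 lower. Its median of 0.047 changed sign with upper quartile scaling (-0.10). Slc1a5, a glutamine transporter, was 848 and 838 against 220 and 232 CPM (1.90 ± 0.05), and Ddit4, an mTORC1 inhibitor induced by stress, 18.6 and 20.2 against 59.2 and 60.6 CPM (-1.62 ± 0.091).

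**Figure D4:**
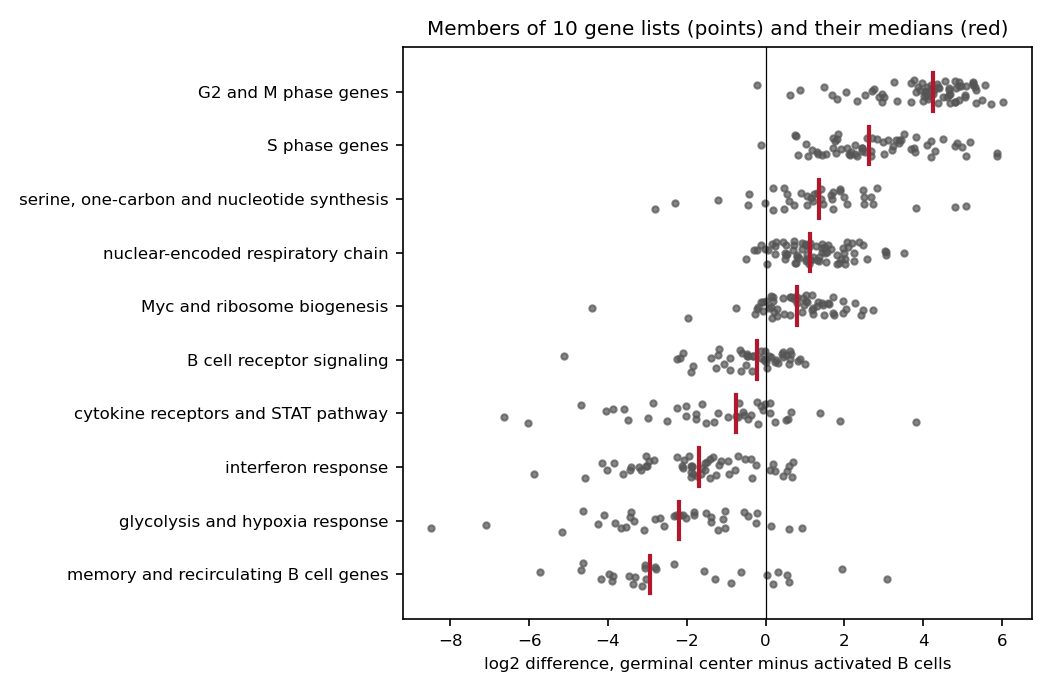
Each point is the log2 difference, germinal center minus activated, of 1 tested member of 10 gene lists, and red bars are medians. Medians run from 4.26 for G2 and M phase genes to -2.92 for memory and recirculating B cell genes, with B cell receptor signaling near 0.

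Interferon response genes were lower in germinal center B cells for 45 of 54 members and higher for 6 (median -1.69). Ifi203, of the DNA-sensing PYHIN family, was 47.3 and 41.5 against 534 and 544 CPM (-3.61 ± 0.059), a value that near-identical family members make uncertain. Ddx58, the RNA sensor RIG-I, was 15.98 and 15.7 against 127 and 130.4 CPM (-3.02 ± 0.08) and Samd9l, an antiviral protein, 206 and 205 against 617 and 656 CPM (-1.63 ± 0.049). Several classical targets were low in both states: Mx1, an antiviral GTPase, was 1.16 and 0.917 against 11.5 and 10.9 CPM (-3.42 ± 0.27), Ifit3, an antiviral RNA-binding protein, 2.12 and 1.19 against 6.07 and 6.44 CPM (-1.94 ± 0.29), and Isg15, a ubiquitin-like protein, 2.01 and 2.48 against 3.14 and 2.21 CPM, which did not pass (-0.24 ± 0.33, adjusted p = 0.50). Irf7, the factor that amplifies interferon, was higher (33.96 and 40 against 25.4 and 24.03 CPM, 0.59 ± 0.10). The myeloid marker sums given above were higher in the same libraries as this list, and their part was not tested. The interferon response element, a pair of GAAA blocks with any 2 bases between them, occurred in 24 of 48 windows of this list (50%) and in 3.44% of all windows, on either strand. The Ifit3 promoter, with a pair of matches in capitals, is shown as an example of the element (RefSeq, GRCm38.p6).
Ifit3, interferon response element, chr19:34583279-34583528, plus strand: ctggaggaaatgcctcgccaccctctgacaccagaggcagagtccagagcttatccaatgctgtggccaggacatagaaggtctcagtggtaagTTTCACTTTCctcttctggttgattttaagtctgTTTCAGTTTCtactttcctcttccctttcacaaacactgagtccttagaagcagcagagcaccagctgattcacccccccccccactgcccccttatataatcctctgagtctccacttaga

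Cytokine receptors and STAT pathway genes were lower for 28 of 41 members and higher for 7 (median -0.75). Il4ra, the IL-4 receptor chain, was 244 and 239 against 309 and 318 CPM (-0.38 ± 0.048), Il2rg, the shared gamma chain, 35.5 and 36.7 against 102 and 106 CPM (-1.52 ± 0.071), and Il10ra, the IL-10 receptor, 56.8 and 56.3 against 195 and 193 CPM (-1.78 ± 0.059). Stat6, which carries the IL-4 signal, was 147 and 154 against 373 and 374 CPM (-1.31 ± 0.05), and Pim2, a kinase that STAT factors induce, 23.7 and 23.4 against 173 and 169 CPM (-2.86 ± 0.07). Socs1, a feedback inhibitor, was higher (18.9 and 20 against 0.733 and 2.01 CPM, 3.80 ± 0.23). The IL-21 receptor described above was higher while most members of the list were lower.

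Cell death genes were divided, 13 of 32 BCL2 family and related genes higher and 17 lower (median -0.26). Beside Bcl2, the survival factor Mcl1, on which germinal center B cells depend, was 626 and 627 against 837 and 783 CPM (-0.37 ± 0.047), and Bcl2l1, which encodes BCL-XL, 18.5 and 19.7 against 11.4 and 12.97 CPM (0.65 ± 0.14). Bcl2l11, the death activator BIM, was lower (69.2 and 66.05 against 124 and 134 CPM, -0.93 ± 0.061), and Birc3, an inhibitor of apoptosis that NF-kappaB induces, lower as well (121 and 130 against 336 and 312 CPM, -1.37 ± 0.051). Targets of p53, the DNA damage regulator, were even at 11 higher and 11 lower of 27, and their median of 0.077 became -0.069 with upper quartile scaling. Cdkn1a, the cell cycle inhibitor p21, was 2.33 and 2.29 against 8.27 and 11.1 CPM (-2.06 ± 0.24), Mdm2, which degrades p53, 174 and 172 against 115 and 124 CPM (0.54 ± 0.053), and Trp53 itself did not pass (160.1 and 160.3 against 155 and 149 CPM, 0.077 ± 0.052, adjusted p = 0.162).

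Chromatin and DNA methylation regulators were close to the background, 31 of 63 higher and 26 lower, with a median of 0.035 that became -0.11 with upper quartile scaling. Ezh2, the H3K27 methyltransferase that germinal center B cells need, was 264 and 261 against 56.1 and 53.6 CPM (2.26 ± 0.058, adjusted p = 1.59e-91). Dnmt1, the maintenance DNA methyltransferase, was 947 and 909 against 113 and 122 CPM (2.98 ± 0.053), and Uhrf1, which brings it to replicated DNA, 462 and 446 against 14.4 and 14.3 CPM (4.98 ± 0.07). Kdm5b, an H3K4 demethylase, was 4.87 and 4.04 against 140.4 and 133 CPM (-4.95 ± 0.10), and Tet2, which oxidizes methylated cytosine, 16.5 and 14.2 against 138 and 151 CPM (-3.24 ± 0.08). The regulators whose loss is frequent in germinal center lymphomas, Kmt2d (420.4 and 404 against 516 and 525 CPM, -0.34 ± 0.047), Crebbp (106 and 91.1 against 138 and 141 CPM, -0.51 ± 0.057) and Ep300 (239.7 and 219 against 329 and 345 CPM, -0.56 ± 0.049), were lower by less than 2-fold. Jmjd1c was 196 and 179 against 278 and 287 CPM (-0.59 ± 0.049).

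**Figure D5:**
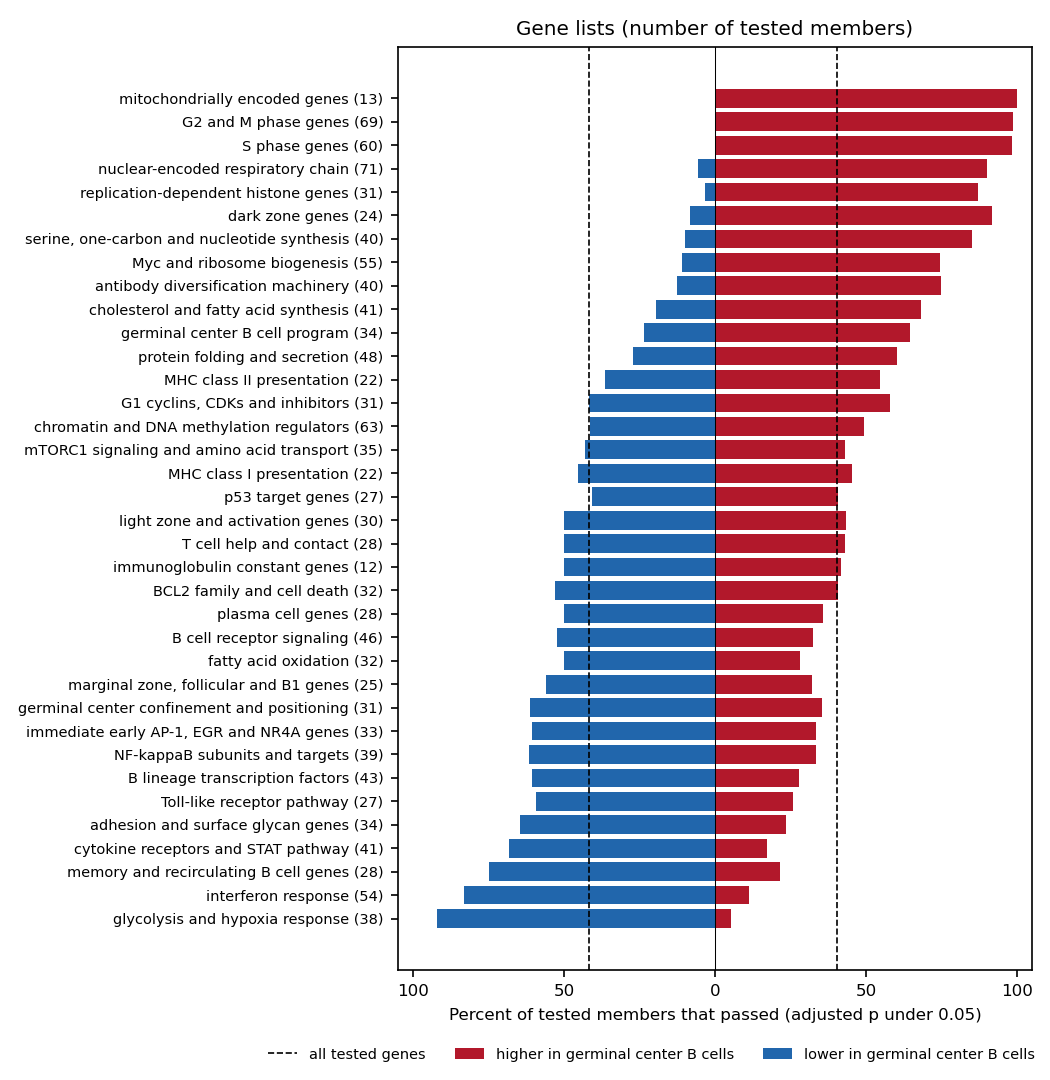
Percent of tested members of 36 gene lists that passed as higher (red, right) or lower (blue, left) in WT germinal center B cells, with the number of tested members in brackets and the percent over all tested genes as dashed lines. The lists of mitochondrially encoded, G2 and M and S phase genes reach 100%, 98.6% and 98.3% higher, and the glycolysis and hypoxia list 92.1% lower.

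At the extremes of the comparison, most genes were not in the B cell lists. The 15 lowest log2 differences among genes whose mean count reached 50 were led by Ngp, Gpnmb, S100a9, Ltf, Clec4e and Chil3, genes of neutrophils and macrophages, and 14 of the 15 had no read in either germinal center library. Gpnmb, a glycoprotein of macrophages, was 126 and 130.4 CPM in the activated libraries (at least 872-fold higher against the floor of 3 counts), and Thbs1, the matrix protein thrombospondin 1, 36.96 and 33.6 CPM (at least 239-fold). Lyz2 was the exception with reads in both. Among the 15 highest were Fos, Mef2b, Nuggc, Mybl1 and Slc15a2, beside Aunip, a DNA repair factor (16.7 and 20.6 against 0.105 and 0.201 CPM), and Ankle1, a nuclease (114 and 114 against 1.05 and 0.804 CPM, 6.93 ± 0.15). Slc15a2 (ENSMUSG00000022899.9, chr16:36750177-36784962), a peptide transporter, was 136 and 132 against 0.733 and 0.503 CPM (7.73 ± 0.15, adjusted p = 2.49e-112). H1f10, a linker histone gene at 125 and 122 against 0.523 and 0.905 CPM, shares 17.5% of its exon length with an opposite gene and is uncertain. The highest levels per kilobase of exon among genes past 2-fold included mt-Co1, mt-Cytb, Ighg1 and Ptma, a nuclear protein of dividing cells (1717 and 1724 against 708 and 700.1 CPM, 1.29 ± 0.048), in germinal center B cells, and Ighm, Ighd, B2m and Rps27, a ribosomal protein (371 and 404 against 1095 and 1073 CPM, -1.48 ± 0.049), in activated B cells.

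The same comparison in the Jmjd1c B KO libraries asked whether these state differences depend on genotype. Jmjd1c itself was 162 and 157 CPM in KO germinal center libraries and 135 and 151 CPM in KO activated libraries, so reads remained. KO levels in CPM, here and below, were scaled over the 4 KO libraries alone, and WT levels over the 4 WT libraries. Which exons the knockout removes is not given in the sources used here. In KO cells 11263 of 14307 tested genes passed (78.7%), 39.2% as higher and 39.5% as lower. The test of the difference between the WT and KO state differences, over all 8 libraries, passed for 4685 of 14992 genes (31.2%), 2064 (13.8%) with the WT value above the KO value and 2621 (17.5%) with it below. Several genes described above had the same sign in KO cells: the KO log2 difference was 1.25 for Bcl6, 5.99 for S1pr2, 4.83 for Mki67, -2.77 for Ccr7, -7.77 for Vegfa and -2.60 for Ighd. The test of the difference passed for Ccr7 (WT minus KO -2.92 ± 0.11, adjusted p = 7.2e-43), Ighd (-2.04 ± 0.067, adjusted p = 4.53e-47), Bcl6 (0.74 ± 0.073, adjusted p = 4.1e-15) and Mki67. It did not pass for S1pr2 (0.013 ± 0.19, adjusted p = 0.981) or Vegfa (-0.69 ± 0.71, adjusted p = 0.503). The WT and KO comparisons share no library.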

How the data were processed

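RNA-seq read counts per gene from 4 WT libraries (2 of germinal center and 2 of activated B cells) were analysed, with the 4 Jmjd1c B KO libraries used only for the comparison of genotypes. The authors deposited whole-number counts per gene, 1 table per library. Per the labels' protocols, RNA was taken with Trizol. The submitters' processing notes name the build mm10 and the tools Trimmomatic and DESeq2. The tool versions, the aligner, the counting program and its strand setting were not given in the sources used here. Of 55401 listed identifiers, 55141 are in GENCODE M21 (GRCm38), which gave coordinates and exon lengths. Gene symbols are those deposited with the counts. The 5 summary entries were removed before any scaling or test. Reads without a feature were 48.5% to 53.9% of all entries in the WT libraries. Without the strand setting, reads of a gene and an overlapping opposite gene cannot be told apart, and where such overlap passes 10% of the exon length, the value is uncertain. Of the genes named with a value this holds for Cd247 (56.4%), Cd274 (14.1%), E2f8 (11.2%), H1f10 (17.5%), Hsp90b1 (10.3%), Mpo (14.95%) and Nfkb2 (18.1%).

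Differential expression was tested on the deposited counts with edgeR 4.0.16 in R 4.3.3 (TMM scaling, filterByExpr, quasi-likelihood F test, Benjamini-Hochberg adjustment over all tested genes, adjusted p under 0.05), on the 4 WT libraries alone. The genotype comparison fitted the 4 group means over all 8 libraries. Standard errors are the log2 difference divided by the square root of F. Where a group had no read, a fold is given against a floor of 3 counts over the group, which covers counting error only. The procedure was tested on simulated data.

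The libraries, the 45 gene lists (1331 symbols, 53 matched by another symbol) and the rule for named genes were chosen with earlier results of these data known, so counts over a list describe it and are no independent evidence. Named genes are the lists' anchor members, the 4 lowest p per list, the 15 highest and 15 lowest log2 differences with no overlap between states and a mean count of 50 or more, and the 10 highest levels per kilobase per state among genes past 2-fold. Lists can share members. Values of a few such genes were left out of the text. Promoter windows are RefSeq's (GRCm38.p6), from 250 bases before to 50 after a start, searched on both strands, and matched by symbol. Alternatives were RLE and upper quartile scaling, no filter, a filter of 1 CPM in 2 libraries, DESeq2 1.42.0, a replicate block, leaving out each library, a fit of all 8 libraries, a test against a 2-fold change and library sizes without mitochondrial and immunoglobulin genes.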

Additional observations from a re-analysis of the deposited data

Results flagged for a closer look

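The state difference differed between the genotypes for many genes: 4685 of 14992 genes passed the test of the WT difference minus the KO difference. Of the 345 genes that the naming rule takes, 226 passed it. For 18 of them the state difference was called in opposite directions in WT and KO cells. The WT call was lost for 5 of the 18 under some alternative: for Bach2, Cxcr4, Spib and Ighg2c with upper quartile scaling, for Spib, Ighg2c and Mtor with DESeq2 (Mtor -0.18, adjusted p = 0.103), for Mtor without germinal center replicate 2 (-0.10, adjusted p = 0.303), for Spib without activated replicate 1 (0.042, adjusted p = 0.384) and for Ighg2c without germinal center replicate 1 or activated replicate 2. Values below are the WT minus KO difference of log2 differences with its standard error, n = 2 libraries in each of 4 groups.

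The largest was Slc15a2, a peptide transporter, at 8.01 ± 0.17 (adjusted p = 4.92e-62). In WT cells it was 136 and 132 CPM in germinal center and 0.733 and 0.503 CPM in activated libraries, and it was 86.8 and 86.1 CPM in KO germinal center and 102 and 105 CPM in KO activated libraries. The WT activated libraries are thus the only low ones of the 8. Mx1, an interferon-induced GTPase, stood at -4.09 ± 0.29, with -3.42 in WT and 0.69 in KO cells. Il9r, a cytokine receptor, stood at -2.80 ± 0.091, with 27.6 and 27.2 CPM in WT germinal center libraries and 141 and 154 CPM in KO germinal center and 118 and 120.2 CPM in KO activated libraries. Ighg2b stood at 2.75 ± 0.072, with 2.07 in WT and -0.66 in KO cells, and Ighg2c at 1.20 ± 0.11.

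The next 9 genes were lower in the germinal center in WT cells and higher in KO cells. The differences were -1.08 ± 0.064 for H2-K1, -0.77 ± 0.064 for H2-D1, -0.81 ± 0.087 for Nlrc5, the activator of class I genes, -1.60 ± 0.076 for Pdia4 and -0.81 ± 0.068 for Hsp90b1, both endoplasmic reticulum chaperones. Fcer2a, the IgE receptor of follicular B cells, stood at -1.02 ± 0.066, Nfkb2 at -0.76 ± 0.073, Mtor at -0.44 ± 0.092 and Jmjd1c itself at -0.74 ± 0.074. Genes higher in the WT germinal center and lower in the KO germinal center were Bach2 at 0.75 ± 0.068, Gna13 at 0.76 ± 0.069, Cxcr4 at 0.68 ± 0.071 and Spib at 0.31 ± 0.067. All 18 had an adjusted p under 0.05 in this test. No cause was tested.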

How the results depend on the processing

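The count of genes that passed between the WT states stayed within 1.5 times its value under every alternative but the test against a 2-fold change, which by its construction passes fewer (5076 genes, 2293 higher and 2783 lower in germinal center B cells). Leaving out 1 library gave 11392 to 11633 genes in all, 5636 to 5765 higher, 5756 to 5868 lower and 6347 to 6630 past 2-fold. The count for the difference between WT and KO state differences was 3069 with DESeq2 against 4685 with edgeR (the cause was not tested), and 3851 to 4493 without 1 library. Counts of members that passed stayed within 1.5 times for all 45 lists under every alternative computed for them (scaling, filters, DESeq2, the replicate block and leaving out a library). Upper quartile scaling moved the median over all genes from -0.034 to -0.18, and turned the sign of Spib, a B lineage factor, to -0.0201 (adjusted p = 0.697). The medians of the chromatin, mTORC1 and p53 lists turned with it, to -0.11, -0.10 and -0.069. Of the 345 named genes 22 gained, lost or turned a call under some alternative, all with a main log2 difference under 1 in size. Deviations of same-numbered WT libraries from the mean of their state did not correlate (-0.00216). Counting noise could hide a shared source, so whether the libraries are paired is not settled. A fit with the replicate block passed 11746 genes, and 4675 for the genotype difference. At about 10 counts per CPM, genes under a few CPM are limited by counting error.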

Other observations

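Genes of other splenic B cell subsets were divided. Of 25 marginal zone, follicular and B1 genes, 8 were higher in germinal center B cells and 14 lower (median -0.55). Notch2, the receptor that marginal zone B cells need, was 61.8 and 57.7 CPM in germinal center and 487 and 500.4 CPM in activated libraries (log2 difference -3.05 ± 0.056), and Cd1d1, which presents lipids, 2.65 and 3.49 against 42.3 and 38.8 CPM (-3.71 ± 0.15). S1pr3, a receptor for the same lipid as S1pr1 and S1pr2, was higher (51.1 and 47.6 against 3.14 and 2.21 CPM, 4.20 ± 0.15), so that S1pr2 and S1pr3 were higher and S1pr1 lower in the same cells. Ms4a1, the antigen CD20, was 1519 and 1551 against 837 and 767 CPM (0.94 ± 0.048). Of 27 Toll-like receptor pathway genes, 7 were higher and 16 lower (median -0.19). Tlr7 and Tlr9, the nucleic acid sensors, were 4.44 and 5.41 against 39.7 and 43.8 CPM (-3.07 ± 0.14) and 54.5 and 46.1 against 102 and 109.5 CPM (-1.08 ± 0.067), and Cd180, a surface receptor related to them, was higher (266 and 250.4 against 197 and 191 CPM, 0.41 ± 0.049).

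Hemoglobin genes went in opposite directions. The adult globin genes Hba-a1 and Hbb-bs were 0.846 and 0.826 against 212 and 199 CPM and 1.8 and 2.29 against 333 and 335 CPM, lower in the germinal center libraries along with other erythroid markers. The embryonic globin gene Hbb-bh1 was higher, at 15.3 and 14.9 against 0 and 0.101 CPM. Over both libraries it had 307 counts in germinal center B cells and 1 in activated B cells, a ratio of 294 with a 95% counting interval of 52.4 to 11650. In KO libraries it was 11.5 and 11.4 CPM in germinal center and 0 and 0 CPM in activated B cells. Globin genes share sequence, so the split of reads among them is uncertain. Mir6236, a short locus annotated as a microRNA, had 18.4 and 13.9 CPM in germinal center libraries and no read in the WT activated ones. Other short entries annotated as microRNAs were higher too. Gm23935 was 729 and 494 against 98.3 and 93.2 CPM, and Gm24270 81.6 and 57.2 against 3.25 and 2.11 CPM. Which RNA the reads at these loci came from was not tested.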
